A study of Bos taurus with 10 samples.

Results

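FABP4, CIDEC, CIDEA, LIPE, G0S2 and PLIN2 are genes of fat storage and release in cells. They were taken by symbol from the array of 10 longissimus dorsi samples, and 10 probe sets with a single gene symbol carried these 6 names, among 24016 probe sets and 9155 named genes in all. Where a gene had several probe sets, the set that stands for it was chosen by its mean log2 level over the 10 arrays, the brightest being kept. The 6 genes themselves were selected on results of these data, among them their spread between animals and their covariation with fat cell markers. All 6 genes had a mean above the median of all probe sets, the limit for testing, which 6271 genes passed.

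The samples are skeletal muscle of Hanwoo, a Korean beef breed, and form 1 group of 10, numbered 1 to 10 here as animals. The label of animal 1 gives an age of about 2 years, and no age, sex, diet or treatment was used for the other animals. Poly(A) RNA from each was read on a GeneChip Bovine Genome Array, which has several short probes for each transcript, together called a probe set. The design concerns expression against beef traits, but no trait value was analysed here, so the genes are described by their level in each animal, their spread, and the genes that varied with them.

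Cells keep triglyceride in lipid droplets, which are coated with proteins that control growth of the droplet and access of lipases to it. In lipolysis, adipose triglyceride lipase, hormone-sensitive lipase and monoglyceride lipase act in turn and release fatty acids, and catecholamines drive and insulin restrains the process through cyclic AMP and protein kinase A. In beef muscle, fat lies both in adipocytes between the fibres, which form marbling, and in small droplets inside the fibres.

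Levels are given as log2(signal + 16) after quantile normalization, so a step of 1 is a doubling for genes well above the added 16 and less than a doubling for dim genes. Probe sets differ in how strongly they bind, so the order of levels between genes is not read as an order of RNA amounts, and "brightest" refers to array signal alone. Of 14 listed skeletal muscle genes 12 were measured, and their means ran from 15.22 to 16.05. Of 18 listed adipocyte genes 17 were measured and 12 passed the level limit; ADIPOQ, the adipokine that defines fat cells, stood at 7.30 ± 1.41 (SD, n = 10), while LEP stood at 5.62 ± 0.57 and PPARG at 6.72 ± 0.81, both below the limit. In bulk muscle, more fat cells and more RNA of a gene per cell cannot be told apart.

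The array of animal 5 stood apart in its control RNAs and over the tested genes as a whole. RNAs with a poly(A) tail that are added to each sample as controls gave an excess of 3' over 5' signal of 2.67 on the log2 scale in animal 5, against 0.78 to 1.06 in the other 9 animals. Along the first principal component of the tested genes, with 30.6% of their variance, it scored 53.2, against -14.3 to 3.12 in the others. Deposited array medians lay between 111 and 134, correlations between arrays ran from 0.900 to 0.960, and no pair of arrays held identical values.

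FABP4 encodes the fatty acid carrier of adipocytes, which is also made in capillary endothelium and macrophages. Its level was lowest at 7.72 in animal 2, had a median of 10.77 and was highest at 13.06 in animal 9, a range of 40.5-fold. Deposited signals were 189.7 in animal 2 and 8356 in animal 9. Animal 9 lay well above the rest, animals 2, 5 and 10 formed the lower end, and animals 3, 4, 6 and 7 were close together between 11.18 and 11.67. The mean was 10.39 ± 1.62 (SD, n = 10), and leaving out any single animal gave an SD between 1.41 and 1.72. The other FABP4 probe set was far dimmer at 6.99 ± 1.55 and put the animals in nearly the same order (r = 0.914, rho = 0.952, n = 10).

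CIDEC encodes a protein at contacts between droplets that passes lipid from a smaller to a larger droplet, and it is typical of the large droplet of white fat cells. Its level was lowest at 6.57 in animal 2, had a median of 8.68 and reached 10.77 in animal 9, an 18.3-fold range with a mean of 8.63 ± 1.16 (SD, n = 10). The extremes fell in the same animals as those of FABP4, and animals 6 and 7 followed animal 9.

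CIDEA belongs to the same family and is known from brown fat and from fat cells with growing droplets. Its level was lowest at 5.59 in animal 5, had a median of 7.63 and was highest at 8.27 in animal 3, with a mean of 7.54 ± 0.75 (SD, n = 10). A single animal made most of this spread. Without animal 5 the other 9 animals lay between 7.35 and 8.28, a range of 1.90-fold, and the SD was 0.32. Animal 2, lowest for CIDEC, was the third highest for CIDEA at 8.01.

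PLIN2 encodes a coat protein of droplets in cells of many kinds, including muscle fibres and macrophages, and the protein is degraded when it is not bound to a droplet. Its level was lowest at 4.99 in animal 5, had a median of 7.25 and was highest at 8.25 in animal 9, with a mean of 7.20 ± 0.96 (SD, n = 10). The deposited signal of 16.3 in animal 5 compares with 88.6 to 305.7 in the other 9. Animals 7, 8 and 9 were the highest, all above 8, and animal 6, high for CIDEC and G0S2, was the lowest after animal 5 at 6.51. The SD without animal 5 was 0.59.

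LIPE encodes hormone-sensitive lipase, which cleaves diglyceride and is made in fat cells and, at a lower level, in muscle fibres. Its level was lowest at 9.64 in animal 8, had a median of 10.33 and was highest at 11.20 in animal 7, a range of 2.94-fold with a mean of 10.28 ± 0.47 (SD, n = 10). Of the 6 genes it had the smallest spread over all 10 animals. Animal 9, the highest for FABP4, CIDEC, G0S2 and PLIN2, was second for LIPE at 10.65. LIPE had 4 probe sets, and the others did not all show the same pattern. The next brightest stood at 7.21 ± 0.48 and had r = 0.858 with the brightest, and 2 dim sets below the level limit, at 6.42 ± 0.47 and 6.27 ± 1.17, had r = 0.270 and 0.696.

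G0S2 encodes a small protein that binds and inhibits adipose triglyceride lipase, the enzyme acting before LIPE. Its level was lowest at 6.58 in animal 2, had a median of 8.08 and was highest at 10.25 in animal 9, a 12.8-fold range with a mean of 8.30 ± 1.24 (SD, n = 10). Animal 6 was close to the top at 9.99, and animals 2, 10 and 5 made up the lower end. No single animal stood far off at either end, and the widest steps lay between 8.08 and 8.95 and between 9.13 and 9.99.

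**Figure D1:**
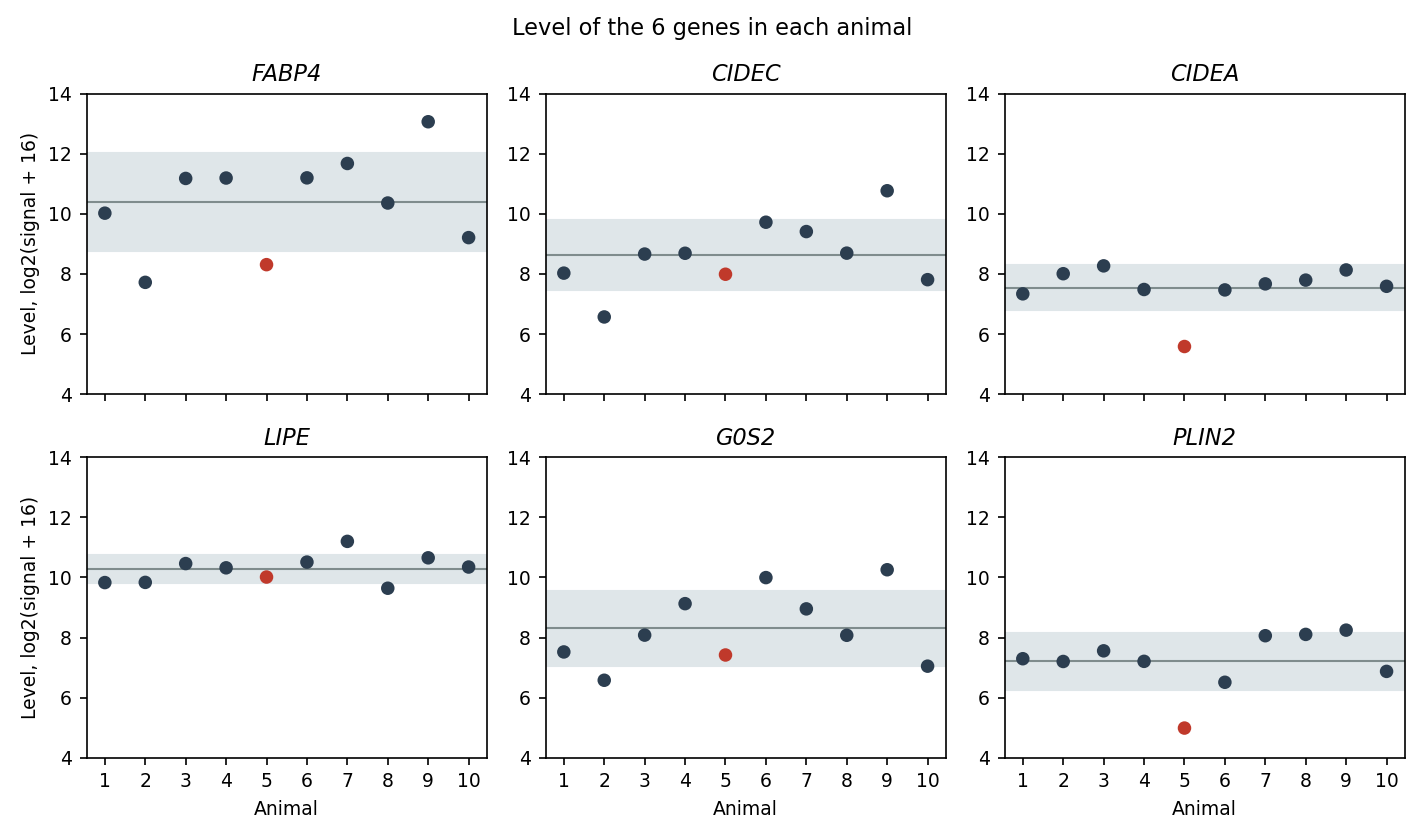
Level of each gene, log2(signal + 16), in animals 1 to 10; the line is the mean over the 10 animals, the band is ± 1 SD and animal 5 is red. FABP4, CIDEC and G0S2 are highest in animal 9 and lowest in animal 2, while CIDEA and PLIN2 have a single low value in animal 5.

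All 6 genes lay above their own mean in animals 7 and 9, and 0 of 6 did so in animal 5. Animals 3 and 4 had 5 genes above the mean and animals 1 and 2 had 1 each, which was PLIN2 in animal 1 and CIDEA in animal 2. The pattern across animals was therefore shared only in part.

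Set against all 6271 tested genes, whose median SD was 0.36 with 0.75 at the 95th percentile, FABP4 was at the 99.9 percentile of SD, G0S2 at the 99.6 and CIDEC at the 99.4. PLIN2 was at the 98.2 percentile, CIDEA at the 94.9 and LIPE at the 72.8. These positions are a description, because the genes were chosen with their spread known. Without animal 5, FABP4, G0S2 and CIDEC stayed above the 99th percentile (99.9, 99.6 and 99.5), whereas PLIN2 was at 91.3 and CIDEA at 54.6, near the middle of all genes. LIPE was at 84.0. Without that animal its own SD was 0.48, against 0.47 over all 10 animals, and the median SD over all tested genes was 0.31.

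**Figure D2:**
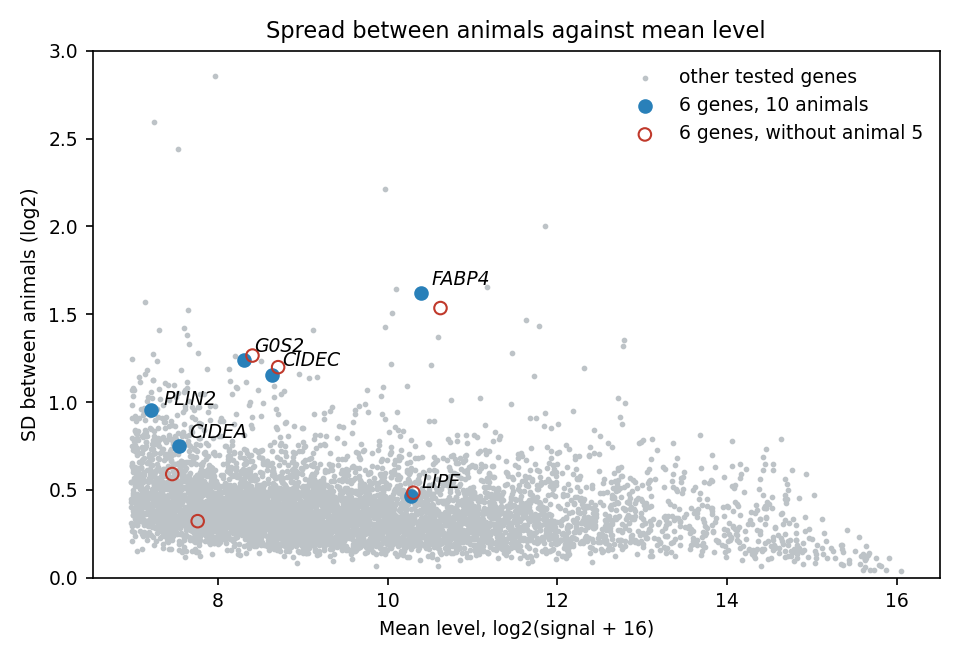
SD between animals against mean level for all 6271 tested genes (grey), for the 6 genes over 10 animals (blue) and without animal 5 (open red). FABP4, G0S2 and CIDEC keep their place without animal 5, while the SD of CIDEA goes from 0.75 to 0.32 and that of PLIN2 from 0.96 to 0.59.

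The levels of FABP4, CIDEC and G0S2 varied together across the animals. CIDEC and G0S2 had r = 0.943 (rho = 0.939), FABP4 and CIDEC r = 0.928 (rho = 0.939), and FABP4 and G0S2 r = 0.891 (rho = 0.952), each over 10 animals. The lowest of these 3 values with any 1 animal left out was 0.840. Over all 19659585 pairs of tested genes, r had a median of 0.0041 and 0.66 at the 95th percentile. All values of r between the 6 genes are given as a description with no test, since the genes were chosen with such results known and the arrays share RNA handling and scaling. The carrier, the droplet fusion protein and the lipase inhibitor thus had like patterns in these 10 samples.

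LIPE followed these 3 genes less closely, with r = 0.644 to FABP4, 0.625 to CIDEC and 0.601 to G0S2, and these were 0.633, 0.610 and 0.581 without animal 5. Animal 8, the lowest for LIPE, lay off the order set by FABP4, where it was near the middle. PLIN2 had r = 0.611 with FABP4, 0.385 with CIDEC and 0.322 with G0S2. Without animal 5 its r with FABP4 was 0.470.

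CIDEA and PLIN2 had r = 0.861 (rho = 0.661), which was 0.498 without animal 5. CIDEA and CIDEC, of the same protein family, had r = 0.217 (rho = 0.176), and 0.097 without animal 5. With FABP4, G0S2 and LIPE, CIDEA had r = 0.461, 0.224 and 0.222, and these were 0.136, -0.014 and 0.095 without animal 5. Of the 15 pairs, r was above 0 in 15, and in 14 without that animal.

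**Figure D3:**
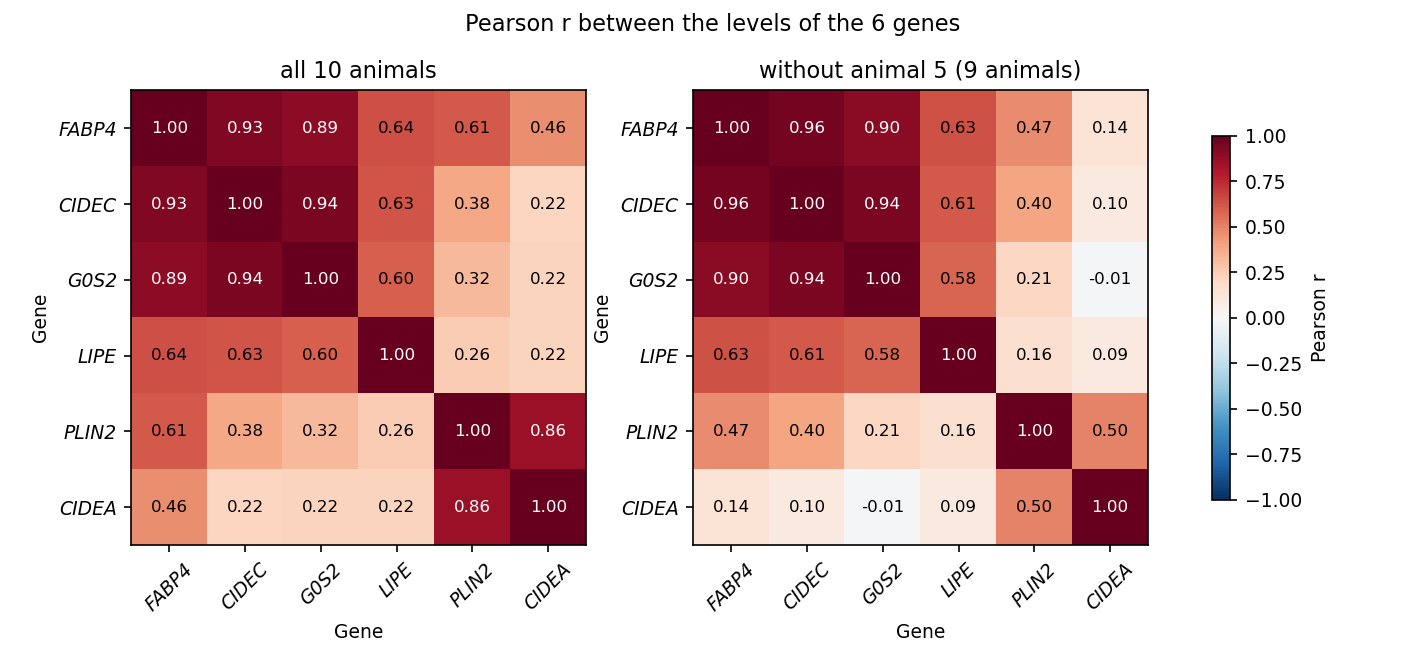
Pearson r between the levels of each pair of the 6 genes over all 10 animals (left) and without animal 5 (right), from -1 in blue to 1 in red. FABP4, CIDEC and G0S2 form a block in both panels, and the r of CIDEA with PLIN2 goes from 0.86 to 0.50.

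**Figure D4:**
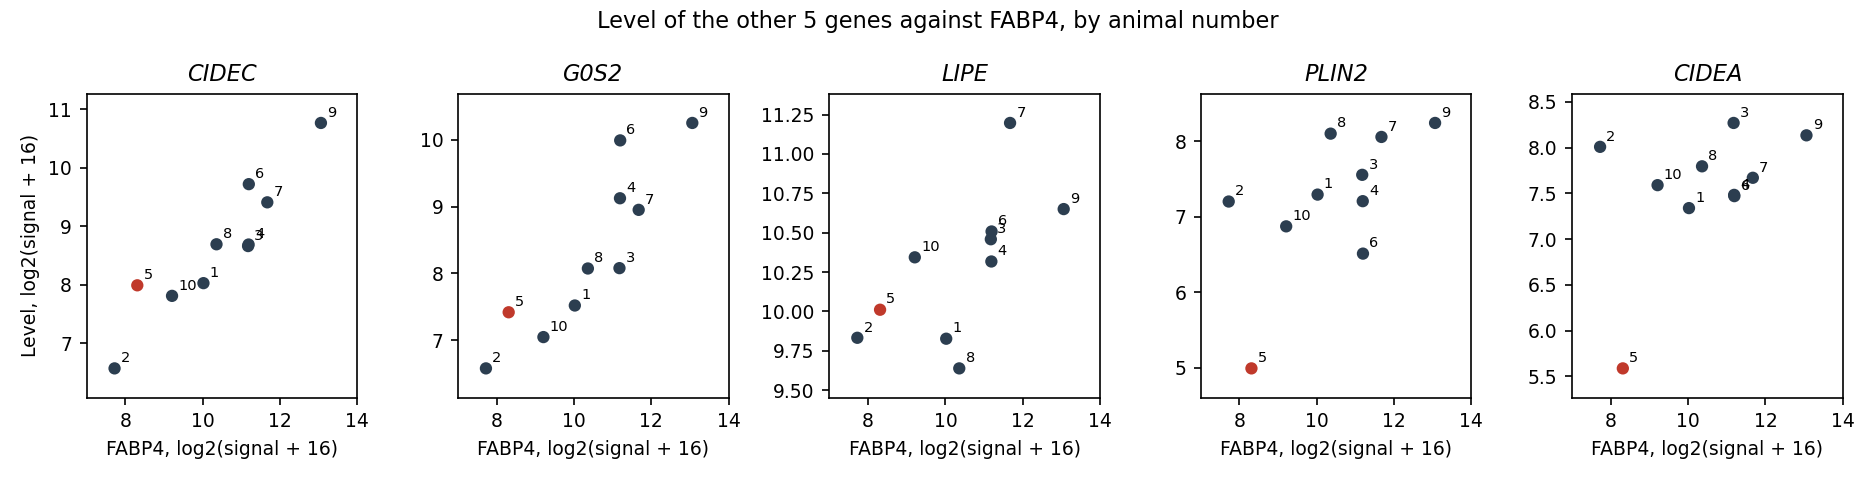
Level of CIDEC, G0S2, LIPE, PLIN2 and CIDEA against that of FABP4, all as log2(signal + 16), with each point labelled by animal and animal 5 in red; the vertical axis differs between panels. CIDEC and G0S2 climb with FABP4 from animal 2 to animal 9, while CIDEA and PLIN2 have animal 5 far below the others, without which r with FABP4 is 0.136 and 0.470.

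Measures of array quality were set against the 6 genes. They were the excess of 3' over 5' signal in the poly(A) controls, the same excess for GAPDH and actin, and the level of the hybridization controls, which gave 18 pairs of a gene and a measure. The measures themselves played no part in choosing the genes. The choice used spread, though, and animal 5 made most of the CIDEA spread and was extreme in the poly(A) measure. The p-values are thus not independent of the choice of genes. The share of all tested genes that varied with a measure was not computed. CIDEA was lower where the poly(A) 3' excess was higher (r = -0.948, permutation p = 0.00172, adjusted p = 0.0310 over 18 pairs, two-sided, n = 10). The rank correlation did not pass the adjustment (rho = -0.782, permutation p = 0.0102, adjusted p = 0.184). Without animals 5 and 3, the farthest from the median of that measure, r was -0.561, and without animal 5 alone it was -0.691. The relation rests in part on animal 5, and without any of animals 1, 2, 5, 6, 8 or 10 no pair of 18 passed.

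PLIN2 had r = -0.793 with the same measure (permutation p = 0.0586, or 0.264 adjusted; rho = -0.321, permutation p = 0.366, or 0.944 adjusted), and 0.142 without the 2 farthest animals. FABP4, CIDEC, G0S2 and LIPE had r from -0.422 to -0.160 with it, with adjusted p from 0.731 to 0.900 in the permutation test, and r from 0.088 to 0.194 without animal 5. For the GAPDH and actin excess, CIDEA and PLIN2 had r = -0.756 and -0.683 (permutation p = 0.0161 and 0.0331, or 0.145 and 0.199 adjusted; rho = -0.576 and -0.418, with permutation p of 0.0891 and 0.231), and -0.142 and 0.093 without animals 5 and 9, the 2 farthest. The other 4 genes had r from -0.348 to -0.024 with it, and no gene passed with the hybridization level, with r between -0.403 and 0.117. In 18 pairs, 3 had an unadjusted permutation p below 0.05 by r and 1 by rho, and 1 and 0 passed the adjustment.

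**Figure D5:**
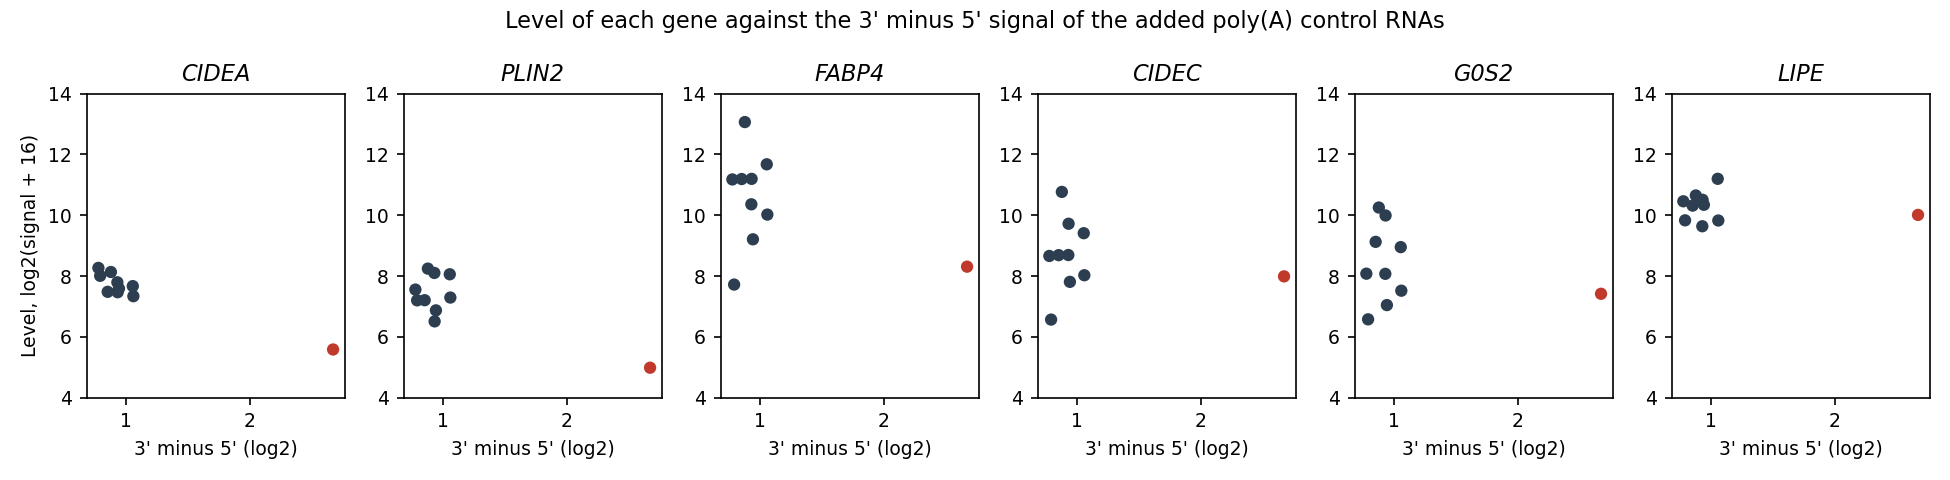
Level of each gene, log2(signal + 16), against the excess of 3' over 5' signal in the poly(A) control RNAs (log2), 1 point per animal with animal 5 in red at 2.67. CIDEA and PLIN2 are lowest in animal 5, while FABP4 and CIDEC in that animal lie within the range of the others.

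The FABP4 level was then used as a covariate to find genes that varied with it across the animals. Slopes are in log2 units per SD of the FABP4 level, which was 1.62. In an alternative, the SD is that of the FABP4 level in that alternative, which was 1.54 without animal 5. Of 6270 tested genes, 3 rose (0.0478%) and 0 fell (0%) at a limma adjusted p below 0.05, with 514 at an unadjusted p below 0.05, and rank correlation of each gene called 0. The 3 were CIDEC, G0S2 and C1QA. CIDEC had a slope of 1.07 (SE 0.14) and G0S2 1.10 (SE 0.17), and nothing is read from these calls, since the genes were chosen with such covariation known. PLIN2 had a slope of 0.59 (SE 0.23), LIPE 0.30 (SE 0.12) and CIDEA 0.35 (SE 0.20). Without animal 5 the slopes of PLIN2 and CIDEA were 0.28 and 0.045, and those of CIDEC, G0S2 and LIPE were 1.15, 1.14 and 0.31. The count of 3 was 0 without animal 9, the highest for FABP4, and 5 without animal 5.

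C1QA, a chain of the complement protein C1q made by macrophages, rose by 0.83 per SD of FABP4 (SE 0.11, limma adjusted p = 0.00926). Over 18 alternatives its adjusted p ran from 0.00768 to 0.185, and in limma it missed the threshold only without animal 9; it was not among genes above the 75th percentile of level, and rank correlation called 0 genes. The next smallest p among rising genes belonged to S100A11, a calcium binding protein, at 0.73 (adjusted p = 0.0738), SLC25A5, a mitochondrial carrier of ADP and ATP, at 0.44 (adjusted p = 0.0738), DAB2, an endocytic adaptor, at 0.53, and RNASE6, a ribonuclease of immune cells, at 1.19 (limma adjusted p = 0.0966 for both). The 5 smallest p with negative slopes belonged to SLC20A1, a phosphate carrier, at -0.57 (adjusted p = 0.0966), and to FHL2, ATP2B1, FDFT1 and ATG4A, with slopes from -0.62 to -0.40 and adjusted p from 0.132 to 0.184. None of these 9 passed in the fit with FABP4 alone over all 10 animals. S100A11 and SLC20A1 passed in limma without animal 5 (adjusted p = 0.0490 and 0.0142) and with the poly(A) 3' excess as a second covariate (adjusted p = 0.0293 and 0.00853). Without animal 2, S100A11 passed as well, and so did RNASE6 (limma adjusted p = 0.0481).

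Other genes of droplets and of lipolysis did not pass with FABP4. Of 28 other droplet genes 20 were measured, 16 tested and 0 passed in either direction. An unadjusted limma p below 0.05 was found for 2 of the 16, against 514 of all 6270. Their median slope was 0.11, against 0.019 over all tested genes. CAV1, the caveolar coat protein and the brightest of them, had the highest slope at 0.35 (limma adjusted p = 0.388), and PLIN5, the droplet coat that links droplets to mitochondria in oxidative muscle, the lowest at -0.25 (adjusted p = 0.608). PNPLA2, which encodes the triglyceride lipase that G0S2 inhibits, had a slope of -0.14 (SE 0.15, adjusted p = 0.805), and its activator ABHD5 was below the level limit at 6.35 ± 0.76.

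Of 28 genes of lipolysis signalling, 20 were measured, 14 tested and 0 passed, and the median slope was 0.056. An unadjusted limma p below 0.05 was found for 2 of the 14, against 514 of all 6270. The inhibitory G protein subunit gene GNAI1 had the highest slope at 0.45 (limma adjusted p = 0.433) and the protein kinase A subunit gene PRKACB the lowest at -0.41 (adjusted p = 0.675). GNAS, the brightest, had 0.038, and -0.0025 without animal 9. The beta-adrenergic receptor genes ADRB1 and ADRB3 were below the level limit, at 4.87 ± 0.58 and 5.36 ± 0.56.

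Among adipocyte markers 12 were tested and 0 passed, with 5 at an unadjusted p below 0.05, against 514 of all 6270 genes. Of these 12 slopes 10 were above 0, against 3488 of all 6270, and the median slope was 0.23. Covariation with fat cell markers had a part in selecting the 6 genes, so these values are no independent evidence. ADIPOQ had the highest slope at 1.16 (SE 0.24, limma adjusted p = 0.0966; 0.0335 to 0.512 over the alternatives, the lowest with the mean of the probe sets). CD36, the fatty acid transporter and the brightest, had 0.20 (adjusted p = 0.527). LPL, the lipase that frees fatty acids from lipoproteins, had the lowest slope at -0.21 (adjusted p = 0.822), and 0.058 without animal 5.

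Leukocyte, fibroblast and endothelial markers varied with FABP4, CIDEC and G0S2 as well, while red cell markers went the other way. The score of a list is the mean, over its measured genes, of the deviation from each gene's mean. The leukocyte score (9 of 12 genes measured, -0.95 in animal 5 to 0.92 in animal 6) had r = 0.845 with FABP4, 0.797 with CIDEC and 0.882 with G0S2, against 0.905, 0.856 and 0.849 for the adipocyte score (-0.51 in animal 5 to 0.72 in animal 9). The fibroblast score (10 of 10 measured, -0.84 in animal 1 to 0.99 in animal 6) had 0.616, 0.688 and 0.744, and the endothelium score (9 of 10, -0.33 to 0.26) 0.672, 0.625 and 0.503. LIPE had r = 0.445 with the adipocyte score, 0.396 with the leukocyte score and 0.424 with the fibroblast score. With the endothelium score it had 0.641, and with the skeletal muscle score 0.635. CIDEA had r = 0.409, 0.460 and 0.449 with the adipocyte, leukocyte and endothelium scores, and -0.082, -0.163 and 0.111 without animal 5. In the FABP4 fit, 6 of 6 leukocyte slopes were above 0, against 3488 of all 6270, and 1 gene rose, C1QA. Of the fibroblast genes 0 of 9 passed, and of the endothelial genes 0 of 7. An unadjusted limma p below 0.05 was found for 4 of 6 leukocyte, 5 of 9 fibroblast and 2 of 7 endothelial genes, against 514 of all 6270. The part of these cell types in the levels of the 6 genes was not tested. The skeletal muscle score ran from -0.057 to 0.032, but its genes lie near the upper end of the quantile normalized values, and their summed deposited signal ran from 372549 to 1063510.

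The summed deposited signal of a list is given for its range over the animals and is not compared between lists. It ran from 553.8 to 2855 for the leukocyte genes, of which ITGAM was the dimmest at 5.21 ± 1.06, from 11936 to 61307 for the fibroblast genes, and from 40042 to 59284 for the adipocyte genes. Red cell genes, with 3 of 4 measured and 1 above the level limit, ran from 108.4 to 253.8. Their score had r = -0.407 with FABP4, -0.548 with CIDEC and -0.597 with G0S2. With LIPE, CIDEA and PLIN2 it had -0.458, -0.083 and -0.017. Liver plasma protein genes ran from 1322 to 13873, with the highest score in animal 3, and this score had r = 0.202 with FABP4, -0.017 with CIDEC, -0.150 with G0S2, 0.490 with LIPE, 0.477 with CIDEA and 0.466 with PLIN2.

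With the PLIN2 level as covariate (SD 0.96), 219 of 6270 genes rose (3.49%) and 74 fell (1.18%) at a limma adjusted p below 0.05, but these calls rested on animal 5. Without it 0 genes passed, with 386 at an unadjusted p below 0.05, and 0 also passed by Spearman correlation per gene over all 10 animals, with 455 at an unadjusted p below 0.05. With the poly(A) 3' excess as a second covariate 0 passed too, with 321 at an unadjusted p below 0.05. The count of 293 was 174, 150, 143 and 141 without animals 1, 2, 3 and 4, and 471 and 459 without animals 6 and 8. Centred on array medians instead of quantile normalized, 104 genes rose and 15 fell.

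The slope of CIDEA on PLIN2 was 0.64 (SE 0.14), that of FABP4 0.99 (SE 0.35), CIDEC 0.45 (SE 0.30), G0S2 0.40 (SE 0.32) and LIPE 0.12 (SE 0.14). Without animal 5, CIDEA had 0.16 and FABP4 0.72, here per SD of PLIN2 in the other 9 animals, 0.59. These sizes are not compared with those over 10 animals, which are per 0.96. The slopes of these 5 genes on PLIN2 stayed above 0 in every alternative that was run.

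The largest slopes past the test on PLIN2 were those of ADGRE5, a leukocyte adhesion receptor, at 1.03 (limma adjusted p = 0.0197), GSTM3 (0.95), MRPS18A (0.92), DPM2 (0.89), FRMD3 (0.88), BOLA-N (0.80), ISOC2 (0.79) and RPS9 (0.77). Those that fell were led by the nuclear receptor gene NR4A2 (-0.90), with INHA (-0.76), CCN1 (-0.74), NFIB (-0.67), TRIM2 (-0.66), SEPHS2 (-0.64), FYN (-0.63) and the early response gene JUN (-0.59). All 16 missed the threshold without animal 5, where ADGRE5 had 0.56 (adjusted p = 0.755), RPS9 -0.064 (adjusted p = 0.936) and NR4A2 -0.32 (adjusted p = 0.876) in limma. In the same fit the slope was 0.76 for GSTM3, 0.69 for BOLA-N and -0.51 for SEPHS2 (limma adjusted p = 0.647, 0.607 and 0.755). Slopes without animal 5 are per SD of PLIN2 in the other 9 animals, 0.59, and those over all animals are per 0.96. Their sizes are therefore not compared.

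Of the other 16 tested droplet genes, 1 rose with PLIN2 and 0 fell, against 219 (3.49%) and 74 (1.18%) of all 6270 tested genes. The gene that rose was FAF2, which acts in protein degradation at the droplet surface. Its slope was 0.68 (limma adjusted p = 0.0427), and 0.11 without animal 5 (adjusted p = 0.934). PNPLA2 had the lowest slope at -0.31 (adjusted p = 0.141) and CAV1, the brightest, 0.096 (adjusted p = 0.744). Of 14 lipolysis signalling genes, 0 rose and 1 fell, against the same shares of all tested genes. The gene that fell was PRKAR2A, a regulatory subunit of protein kinase A. Its slope was -0.44 (limma adjusted p = 0.0419), and -0.060 without animal 5 (adjusted p = 0.940). PRKG1 had the highest slope of that list at 0.41 and PRKACB the lowest at -0.60 (limma adjusted p = 0.235 and 0.102), and GNAS had 0.076. No adipocyte gene of 12 passed. An unadjusted limma p below 0.05 was found for 4 of the 12, against 1453 of all 6270 genes in this fit. ADIPOQ had 0.54 (adjusted p = 0.394), CD36 0.15 (adjusted p = 0.288) and LPL -0.55 (adjusted p = 0.0994).

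The patterns most like each gene were found by Pearson r over the 10 animals among 6265 tested genes, which leave out the 6 themselves. For FABP4 they were SLC25A5 (0.963), C1QA (0.938) and DAB2 (0.937), and each was still above 0.90 with any animal left out. For CIDEC they were COL6A1, a collagen VI chain, at 0.908, TIMM21, of the mitochondrial import machinery, at 0.904, and SLC25A5 at 0.903. For G0S2 they were the cytochrome c oxidase subunit gene COX7A2 (0.934), COL12A1 (0.930) and RTN4IP1 (0.922). SLC25A5 was thus on the lists of both FABP4 and CIDEC.

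LIPE was closest to ADAM9, a membrane metalloprotease, at 0.905, HYAL1 at 0.872 and the endothelial sialomucin gene EMCN at 0.838, which were 0.849, 0.796 and 0.783 at the lowest with 1 animal left out. CIDEA was closest to GMPR2 (0.981), UBE2A (0.971) and MRPL35 (0.968), and PLIN2 to EXOSC3 (0.981), ASPN (0.954) and IL33 (0.948). For these 6 genes r was lowest without animal 5, from 0.808 for MRPL35 to 0.956 for EXOSC3. These values are a description, with no test.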

How the data were processed

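The authors deposited 1 linear intensity per probe set for each of 10 one-colour GeneChip Bovine Genome Arrays. Per the labels' protocols, Trizol RNA was enriched for poly(A) RNA on an oligo(dT) resin and labelled with biotin. The software, not given in the sources used here, left a common scale: without the lowest and highest 2% the mean was 500.2 on every array. All 10 value columns were used.

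Values were turned into log2(signal + 16) and quantile normalized without 112 control probe sets. Of 24016 other probe sets, 13292 had 1 gene symbol, 86 several and 10638 none listed, and only the first kind was named. Checking symbols against RefSeq genes (ARS-UCD2.0) changed 0. Genes with a mean above the median probe set, 6.98, were tested with limma 3.58.1 in R 4.3.3 (trended prior), with the Benjamini-Hochberg adjustment and a threshold of 0.05. Array measures were tested by two-sided permutation with 100000 resamples. The slope fit and the permutation test were tried on simulated data, and the other steps were not.

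The 6 genes, the lists, the marker genes and the tests were chosen with earlier results of these data known. Genes named for a fit were up to 8 per direction with the largest slopes past the test or, with fewer than 5 past it, the 5 smallest p in each direction; for each of the 6 genes the 3 with the highest r; and, per list, those past the test, the brightest and both extremes of slope. Nothing but the sample numbers marks the samples as separate animals, so p-values hold only for the spread between these samples. The number of arrays limits the precision.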

Additional observations from a re-analysis of the deposited data

Results flagged for a closer look

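In groups of 10, a sample is set apart when its gap to the nearest other sample exceeds the 95% limit of Dixon's ratio to the whole range, which chance alone gives in about 1 group in 20. Of the 6 genes, 2 met this, both in animal 5. The share of all tested genes that met it was not computed. The 6 genes were chosen with their spread known, so the rate of 1 in 20 does not apply to them. The level of CIDEA there was 5.59, with a gap of 0.653 of the range, and that of PLIN2 was 4.99, with a gap of 0.468, just past the limit. Of 3 array measures, the excess of 3' over 5' signal in the poly(A) controls met it, also in animal 5, at 2.67 with a gap of 0.851.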

How the results depend on the processing

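For FABP4 the count of 3 genes was 0 among genes above the 75th percentile of level and by Spearman correlation, and 5 with probe sets averaged and with the poly(A) 3' excess as covariate, where in the latter 4 rose and 1 fell; with 1 animal left out it ran from 0 to 5. For PLIN2 the count of 293 was 119 with median centring, 123 with no filter, 585 with a pseudocount of 1, and 0 with a pseudocount of 64, with the poly(A) covariate and by Spearman correlation; with 1 animal left out it ran from 0 to 471. Without animals 3 and 7, an alternative chosen after seeing the data, it was 126. The count of array measure pairs past the test, 1, ran from 0 to 1 with 1 animal left out. The cause of these changes was not tested. Each slope below is per SD of the covariate in its own alternative, so sizes are not compared between alternatives. Sign changes among named genes, none of them called after the change, came with the poly(A) covariate for LPL on FABP4 (0.0061) and for RPS9 (-0.039), PRKACB (0.036) and CD36 (-0.036) on PLIN2. Leaving out single animals gave slopes from -0.37 to 0.058 for LPL and from -0.0025 to 0.059 for GNAS on FABP4, and from -0.064 to 0.87 for RPS9, -0.017 to 0.19 for CAV1, -0.72 to 0.094 for PRKACB and -0.030 to 0.21 for CD36 on PLIN2. Of 861 values of named genes under alternatives, 126 lost the call with the sign kept, 124 of them on PLIN2. A further 10 changed sign, and 8 gained the call. RPS9 on PLIN2 also lost the call where its sign changed, without animal 5 and with the poly(A) covariate. No mean, SD or slope of the 6 genes changed sign in 363 values; with probe sets averaged FABP4 stood at 8.69 and LIPE at 7.54. No paired analysis was possible because there is 1 group.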
